A study of Homo sapiens with 6 samples.

Results

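HLA-DMA, HLA-DMB and CD74 encode the chaperones with which class II molecules of the major histocompatibility complex (MHC) are loaded with peptide. They were followed in SK-OV-3 cells, an established line of human ovarian cancer labelled as wild type. Of 6 libraries, 3 were of cells cultured without addition (control 1, 2 and 3) and 3 of cells exposed for 48 h to fulvic acid, a mixture of soluble humic compounds, at 100 µg/ml (FA 1, 2 and 3). The 3 genes were taken by symbol from a deposited table of 459 genes that the authors had already selected for a difference between these same libraries. All 3 were found, each with an Ensembl identifier that carries the same symbol in GENCODE release 29 (GRCh38). The labels do not state whether replicates were grown as independent cultures. The p-values thus refer to variation among the 6 libraries, part or all of which may be technical.

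Class II molecules present peptides from the endosomal pathway to CD4+ T cells. CD74, the invariant chain, binds newly made class II dimers, blocks their groove and guides them to endosomes, where proteases trim it to a short remnant called CLIP. HLA-DMA and HLA-DMB encode the alpha and beta chains of HLA-DM, a heterodimer that releases CLIP and lets other peptides bind. The genes are characteristic of antigen-presenting cells, where the transactivator CIITA drives them through conserved promoter boxes, and interferon-gamma can induce them in many other cells, tumour cells among them.

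With FA the transcripts of all 3 genes were higher, and that of HLA-DMB rose far more than that of its partner chain. HLA-DMB rose 6.11-fold, HLA-DMA 2.05-fold and CD74 2.00-fold in a fit of the counts scaled to library depth. The FPKM ratio of the beta to the alpha chain of HLA-DM (FPKM are fragment counts divided by gene length and library depth, so levels of different genes can be compared) went from 1.98 in control libraries to 5.85 with FA as geometric means. The protease gene CTSB and the interferon-gamma signalling genes IRF1 and SOCS3 were the other genes of the pathway lists in the table, and all 3 were lower at recovered depth, CTSB and IRF1 with a change of sign under TMM or DESeq2 size factors computed over the listed genes.

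The start regions of the 3 genes are shown because the genes moved in the same direction and their known regulation runs through these regions. Each sequence is from RefSeq (build GRCh38.p14), read 5′ to 3′ on the minus strand, from 250 bases before the annotated start to 50 bases after it. For each gene this RefSeq start lies inside the gene span of GENCODE release 29 given further on. That span reaches further upstream, by far the most in HLA-DMA. The windows are chr6:32953048-32953347 for HLA-DMA, chr6:32940979-32941278 for HLA-DMB and chr5:150412861-150413160 for CD74. Capitals mark every CCAAT on either strand (ATTGG when read on the opposite strand) and the longest run of letters shared by HLA-DMA and HLA-DMB. CCAAT is the core bound by the factor NF-Y at the Y box of class II promoters. Whether each marked CCAAT belongs to a Y box was not tested.
HLA-DMA: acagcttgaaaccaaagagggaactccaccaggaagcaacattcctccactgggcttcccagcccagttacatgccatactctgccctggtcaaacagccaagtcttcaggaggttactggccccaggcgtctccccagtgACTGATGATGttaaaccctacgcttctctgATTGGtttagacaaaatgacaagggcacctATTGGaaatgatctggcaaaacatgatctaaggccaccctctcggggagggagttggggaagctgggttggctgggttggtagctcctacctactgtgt
HLA-DMB: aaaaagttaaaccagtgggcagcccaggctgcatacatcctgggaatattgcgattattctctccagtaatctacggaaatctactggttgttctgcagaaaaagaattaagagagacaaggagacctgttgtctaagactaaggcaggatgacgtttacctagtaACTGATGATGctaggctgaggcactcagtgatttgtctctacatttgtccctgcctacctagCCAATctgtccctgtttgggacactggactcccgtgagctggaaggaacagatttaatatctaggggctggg
CD74: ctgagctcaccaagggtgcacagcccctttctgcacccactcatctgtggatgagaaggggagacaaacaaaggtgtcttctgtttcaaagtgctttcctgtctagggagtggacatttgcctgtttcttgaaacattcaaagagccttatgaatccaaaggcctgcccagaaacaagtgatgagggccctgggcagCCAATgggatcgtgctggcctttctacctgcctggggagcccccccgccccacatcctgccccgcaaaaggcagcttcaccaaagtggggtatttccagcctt

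CCAAT occurred in all 3 windows, as it does in 34.6% of 35116 windows of the same kind. In HLA-DMA it stood 79 and 49 bases before the start, both on the opposite strand, in HLA-DMB 22 bases before it and in CD74 53 bases before it. The run shared by HLA-DMA and HLA-DMB was ACTGATGATG, 10 bases long, which began 109 bases before the start of HLA-DMA and 84 bases before that of HLA-DMB. It was found by comparing these very windows, so its presence in both is no result. Over all windows it stood on either strand in 30 of 35116 (0.0854%), among them that of HLA-DRB1, a classical class II beta chain gene that is not in the table. CD74 did not hold it letter for letter. The longest exact run of CD74 in common with either DM gene on the same strand was of 8 letters (HLA-DMA) or 9 letters (HLA-DMB). Near matches were not searched for, so these runs do not show whether CD74 has a similar stretch. The core of the aryl hydrocarbon receptor element, GCGTG, stood on neither strand of the 3 windows and in 36.5% of all windows, and likewise the STAT pattern TTCNNNGAA (7.66% of all). These are matches of letters in a window of 300 bases, and binding was not measured.

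HLA-DMB, the beta chain of HLA-DM (ENSG00000242574, chromosome 6, positions 32934629 to 32941070, minus strand), stood at 2.78, 2.43 and 3.96 FPKM in control 1, 2 and 3 and at 18.6, 19.9 and 18.5 FPKM in FA 1, 2 and 3. The groups lay far apart, since the lowest FA library was 4.67 times the highest control library. The counts behind these levels were 168, 164 and 246 without FA and 980, 1190 and 1254 with it. Its log2 fold change was 2.61 (SE 0.18, n = 3 per group; edgeR quasi-likelihood test, Benjamini-Hochberg adjusted p = 1.75e-07 over 459 genes). For HLA-DMB the authors' deposited table has 2.67 on the log2 scale and a false discovery rate of 1.67e-45. By that fold change HLA-DMB ranked 7 among the 117 higher genes, whose median in the authors' deposited table was 1.34.

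HLA-DMA, the alpha chain (ENSG00000204257, chromosome 6, positions 32948613 to 32969094, minus strand), stood at 1.15, 1.28 and 2.35 FPKM in control 1, 2 and 3 and at 2.93, 2.95 and 3.96 FPKM in FA 1, 2 and 3. The groups did not overlap, but control 3 stood well above the other control libraries, and the lowest FA library was 1.24 times as high as control 3. Its counts were 56, 70 and 125 without FA and 132, 145 and 226 with it. The log2 fold change was 1.04 (SE 0.28, n = 3 per group; edgeR adjusted p = 0.00295), and its p was the second largest of the 459 genes. In the authors' deposited table it has a log2 fold change of 1.10 and a false discovery rate of 0.00847, with the 7th largest false discovery rate of a table that ends at 0.00977.

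CD74, the invariant chain (ENSG00000019582, chromosome 5, positions 150401637 to 150412929, minus strand), stood at 1.18, 1.50 and 1.60 FPKM in control 1, 2 and 3 and at 2.77, 2.78 and 3.01 FPKM in FA 1, 2 and 3. No FA library came near the control range, the lowest being 1.73 times the highest control library. Its counts were 75, 95 and 112 in control libraries and 156, 174 and 216 in FA libraries. The log2 fold change was 1.00 (SE 0.20, n = 3 per group; edgeR adjusted p = 0.000381), and in the authors' deposited table it is 1.06 with a false discovery rate of 4.4e-05. CD74 ranked 103 and HLA-DMA 93 among the 117 higher genes by the authors' log2 fold change, near the lower limit of the table, which is 1.00.

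**Figure D1:**
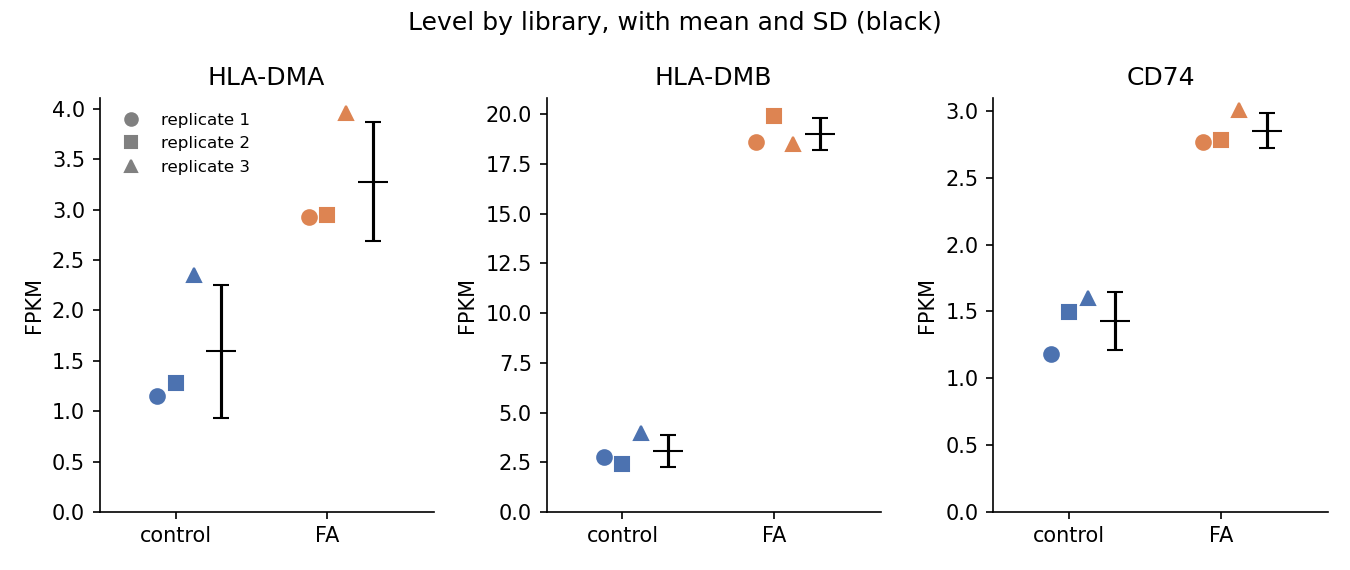
FPKM (y axis, from 0, a separate scale in each panel) of HLA-DMA, HLA-DMB and CD74 in each control (blue) and FA (orange) library, with symbols for the replicate number and the mean ± SD of each group in black (n = 3). Every FA library lies above every control library for each gene, with the widest gap in HLA-DMB (4.67 times) and the narrowest in HLA-DMA (1.24 times).

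All 3 genes had FA libraries wholly above control libraries in FPKM and in counts. Among the 459 listed genes 25.3% were higher in that sense by FPKM, and 25.5% were higher in edgeR at an adjusted p under 0.05. The other listed genes were lower. In either direction, 458 of the 459 genes had no overlap between groups in FPKM, so this separation is common to nearly all listed genes. The table was selected on these libraries, every one of its genes passed the edgeR threshold (459 of 459), and the members' passing it adds nothing to their being listed. More cells that express a gene and more RNA per cell cannot be told apart in these bulk libraries.

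The transcripts of the chains of HLA-DM moved apart, and protein was not measured. The FPKM of HLA-DMB was 2.43, 1.90 and 1.68 times that of HLA-DMA in control 1, 2 and 3, and 6.35, 6.76 and 4.67 times in FA 1, 2 and 3. HLA-DMB was thus the higher transcript of the pair in all 6 libraries, and every FA ratio was above every control ratio. On the log2 scale the ratio was 0.98 ± 0.27 in control and 2.55 ± 0.29 with FA (SD, n = 3), a difference of 1.56 (SE 0.23), or 2.96-fold. The exact two-sided permutation test over libraries gave p = 0.1, the smallest that 3 against 3 can give, and 0.15 after adjustment over the 3 ratios between the genes. The ratio is taken within a library and so does not depend on how libraries are scaled to each other.

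The same balance can be read from the counts without FPKM. Of the reads counted to either DM gene, HLA-DMB held 75.0% in control 1 (95% exact Clopper-Pearson interval 68.8 to 80.5%, 224 reads), 70.1% in control 2 (63.8 to 75.9%, 234 reads) and 66.3% in control 3 (61.3 to 71.1%, 371 reads). With FA it held 88.1% in FA 1 (86.1 to 90.0%, 1112 reads), 89.1% in FA 2 (87.4 to 90.8%, 1335 reads) and 84.7% in FA 3 (82.8 to 86.5%, 1480 reads). No interval of an FA library touched that of a control library. These intervals cover counting error only, and the shares are of reads, which also reflect the lengths of both genes.

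HLA-DMB moved away from CD74 by about as much as from HLA-DMA. Its FPKM was 2.35, 1.62 and 2.47 times that of CD74 in control 1, 2 and 3 and 6.72, 7.16 and 6.15 times in FA 1, 2 and 3, again with no overlap. The log2 ratio differed by 1.66 (SE 0.20) between FA and control (exact permutation test, two-sided, p = 0.1, adjusted p = 0.15). CD74 and HLA-DMA stood at overlapping levels in both groups. CD74 was 1.03, 1.17 and 0.681 times HLA-DMA in control libraries and 0.945, 0.944 and 0.760 times in FA libraries, and these ranges overlap. Their log2 ratio differed by -0.09 (SE 0.26; single libraries of the groups differed by -0.63 to 0.47; exact permutation test, two-sided, p = 0.8), which at this spread does not show that both changed alike.

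**Figure D2:**
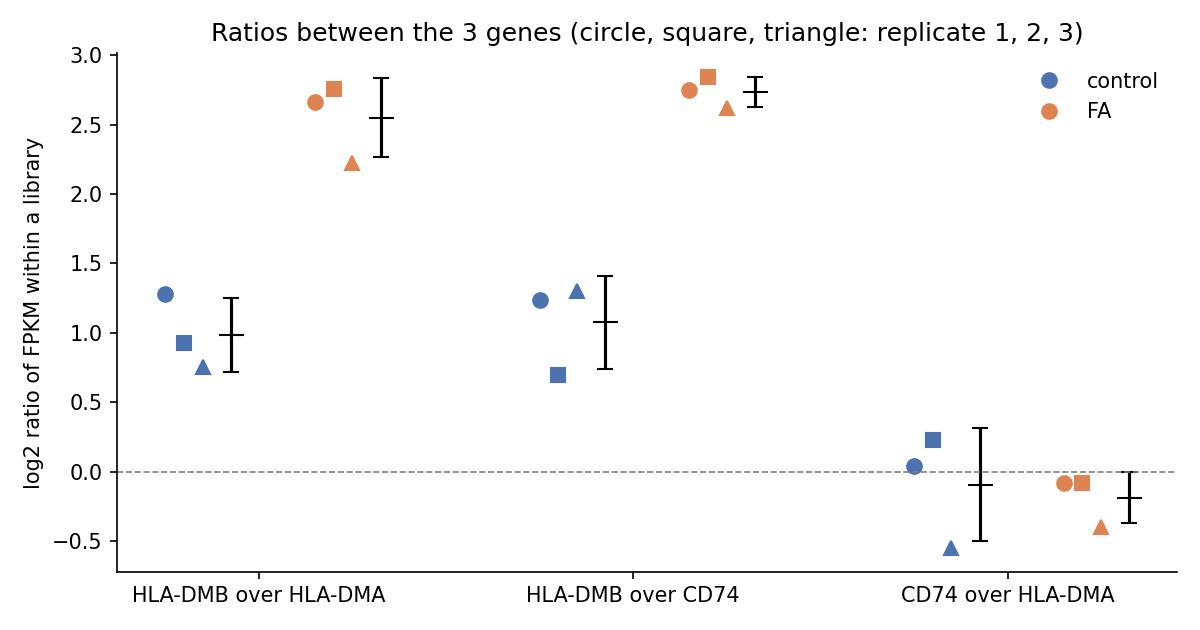
Log2 ratio of FPKM within each library (y axis) for HLA-DMB over HLA-DMA, HLA-DMB over CD74 and CD74 over HLA-DMA in control (blue) and FA (orange) libraries, with mean ± SD in black (n = 3) and the dashed line at equal levels. Both ratios with HLA-DMB are higher in every FA library than in any control library, by 1.56 and 1.66 on average, while CD74 over HLA-DMA overlaps between groups.

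The order of levels was the same in both groups at the top and unsettled below. In control libraries HLA-DMB had 3.06 ± 0.80 FPKM, HLA-DMA 1.59 ± 0.66 and CD74 1.43 ± 0.22 (SD, n = 3), and all HLA-DMB values were above all values of the others. HLA-DMA was above CD74 in 1 of 3 control libraries, so this pair did not differ beyond its spread. With FA the levels were 19.0 ± 0.81 FPKM for HLA-DMB, 3.28 ± 0.59 for HLA-DMA and 2.85 ± 0.13 for CD74. HLA-DMA was above CD74 in 3 of 3 FA libraries, although the ranges of both genes overlapped. Among the 117 higher genes, whose median rose from 1.65 to 4.25 FPKM, HLA-DMB went from rank 43 by level in control to rank 29 with FA, HLA-DMA from 61 to 66 and CD74 from 62 to 71.

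The spread between libraries was uneven. In control libraries the coefficient of variation of FPKM was 41.5% for HLA-DMA, 26.3% for HLA-DMB and 15.3% for CD74, where counting error alone would give 10.9%, 7.20% and 10.3%. Control 3 was the highest control library for each of the 3 genes. With FA it was 17.9% for HLA-DMA (7.72% from counting), 4.24% for HLA-DMB (2.96%) and 4.65% for CD74 (7.41%). FA 3 was the highest FA library for HLA-DMA and CD74 and the lowest for HLA-DMB. Without control 3 the log2 fold changes were 1.43 for HLA-DMA, 2.81 for HLA-DMB and 1.13 for CD74.

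**Figure D3:**
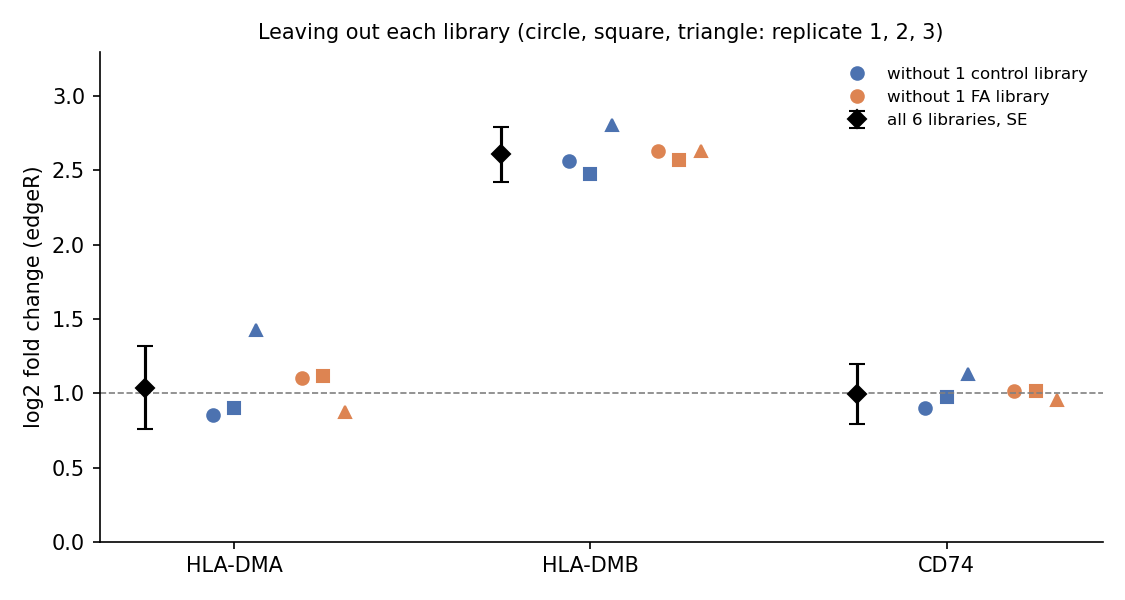
Log2 fold change of FA against control from edgeR (y axis) with all 6 libraries (black, with SE) and without each control (blue) or FA (orange) library, for HLA-DMA, HLA-DMB and CD74, with a dashed line at 1. HLA-DMB stays between 2.48 and 2.81, CD74 between 0.90 and 1.13 and HLA-DMA, which depends most on control 3, between 0.85 and 1.43.

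The 2 DM genes lie next to each other in the class II region of chromosome 6, with 7542 bases between them, and CD74 lies on chromosome 5. Of the exonic bases of HLA-DMB 9.41%, and of those of HLA-DMA 6.87%, are also exonic in AL645941.2, an annotated gene on the same strand that spans from one into the other. A further 2.17% of HLA-DMA is shared with BRD2 on the opposite strand. No exonic base of CD74 is shared with another gene. Neither AL645941.2 nor BRD2 is in the table. How reads of shared bases, of related HLA genes or of other MHC haplotypes were assigned is not given in the sources used here. Besides the DM pair, the gene of the table within 1 Mb of it was GPSM3, a regulator of G protein signalling, which fell from 1.15 ± 0.34 to 0.218 ± 0.13 FPKM (edgeR adjusted p = 0.000107). With scaling over the listed genes alone its log2 fold change was -1.06 under TMM (adjusted p = 0.0527) and -1.07 under DESeq2 size factors (adjusted p = 0.0492). Within 1 Mb of CD74 lay SYNPO, encoding the actin-binding protein synaptopodin, and ANXA6, encoding an annexin, both lower with FA at recovered depth but not under TMM over the listed genes (log2 0.18 and -0.01). SYNPO fell from 7.59 ± 0.97 to 3.63 ± 0.24 FPKM, and the level of ANXA6 dropped to 6.90 ± 0.17 FPKM where it had been 16.9 ± 1.7 without FA (SD, n = 3; edgeR adjusted p = 2.17e-05 and 5.73e-06).

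**Figure D4:**
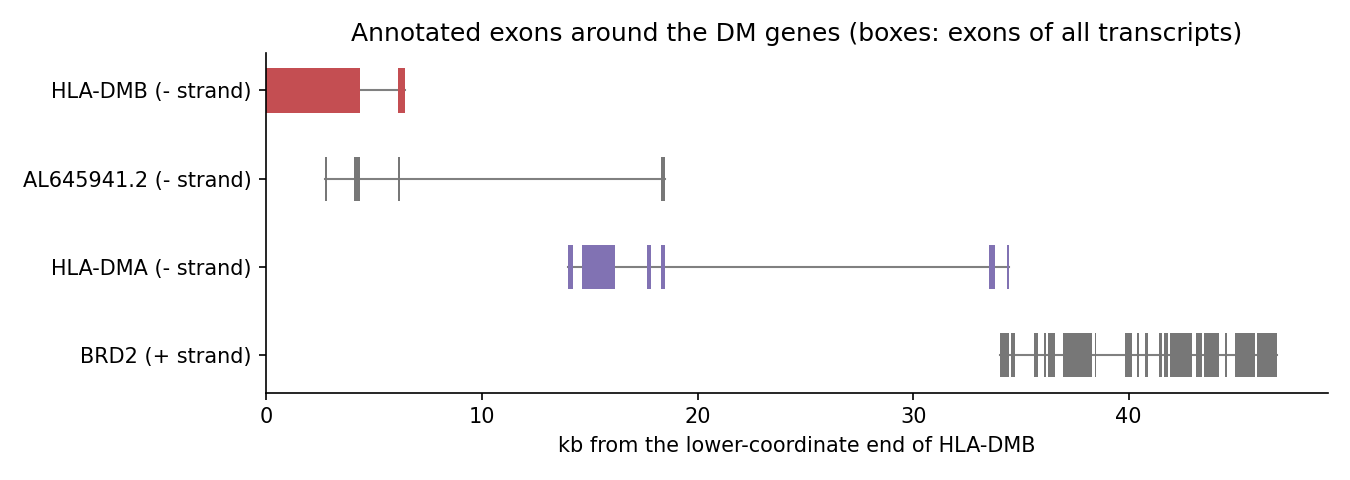
Exons (boxes) of all annotated transcripts of HLA-DMB, AL645941.2, HLA-DMA and BRD2 by distance in kb from the lower-coordinate end of HLA-DMB, 1 row per gene with its strand. AL645941.2 shares exonic bases with both DM genes (9.41% of HLA-DMB and 6.87% of HLA-DMA), and BRD2 overlaps 2.17% of the exonic bases of HLA-DMA on the other strand.

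The gene length that counts, FPKM and depth imply was nearly constant for HLA-DMA, 1101 to 1130 bases over the 6 libraries. For HLA-DMB it was 1389 and 1385 bases in control 1 and 2 and 1310 to 1336 bases in the others. For CD74 it was 1298 bases in control 2 and 1400 to 1474 bases in the others. The FPKM of CD74 and HLA-DMB was therefore not made with 1 fixed length per gene. With counts in place of FPKM the differences of the log2 ratios were close to those above, at 1.54 for HLA-DMB over HLA-DMA and 1.62 for HLA-DMB over CD74.

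Of 92 genes in 8 lists around antigen presentation, 6 were in the table, the 3 genes described here as higher and 3 others as lower. Of 14 class II molecules and chaperones these 3 were listed, and of the 13 protein-coding genes annotated with HLA-D symbols only the DM pair was. The list of endosomal processing had 1 of 13 in the table. This was CTSB, cathepsin B, an endolysosomal cysteine protease, which fell 2.22-fold in the fit of counts (edgeR adjusted p = 5.53e-06). Its level was 224, 206 and 253 FPKM in control 1, 2 and 3 and 133, 116 and 110 FPKM in FA 1, 2 and 3. The fall of mean FPKM was smaller, at 1.90-fold. The interferon-gamma list had 2 of 17. IRF1, a transcription factor induced by interferon-gamma, stood at 22.0, 24.4 and 28.0 FPKM in control libraries and at 12.5, 11.2 and 10.3 FPKM with FA, a fall of 1.11 on the log2 scale (SE 0.14, edgeR adjusted p = 1.12e-05). SOCS3, an inhibitor of cytokine signalling through JAK and STAT proteins, fell by 1.71 (SE 0.22, edgeR adjusted p = 1.11e-05), from 11.9, 18.2 and 18.3 to 6.20, 4.88 and 3.76 FPKM. None of these 3 genes overlapped between groups in FPKM, as was the case for 458 of the 459 listed genes. Over all listed genes 74.5% were lower. Scaled with TMM over the listed genes alone, which centres the typical listed gene, the log2 fold change was 0.10 for CTSB, 0.14 for IRF1 and -0.47 for SOCS3 (edgeR adjusted p = 0.573, 0.432 and 0.0809). HLA-DMA, HLA-DMB and CD74 then stood at 2.29, 3.86 and 2.24. This scaling raised the median log2 fold change of the listed genes by 1.24, and all 117 higher genes stayed higher. It is therefore no test of the members.

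The lists of class II transcription with CIITA (8 genes), class I presentation (20), MIF and CD74 signalling (5), ubiquitin and turnover of class II (3), and T cell co-stimulation and inhibition (12) had 0 members in the table. The same was true of the 33 markers of professional antigen-presenting cells, leukocytes and ovarian cancer epithelium. Genes outside the table were not analysed here, so this says nothing of their expression, and the label of the cells could not be checked against these markers.

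**Figure D5:**
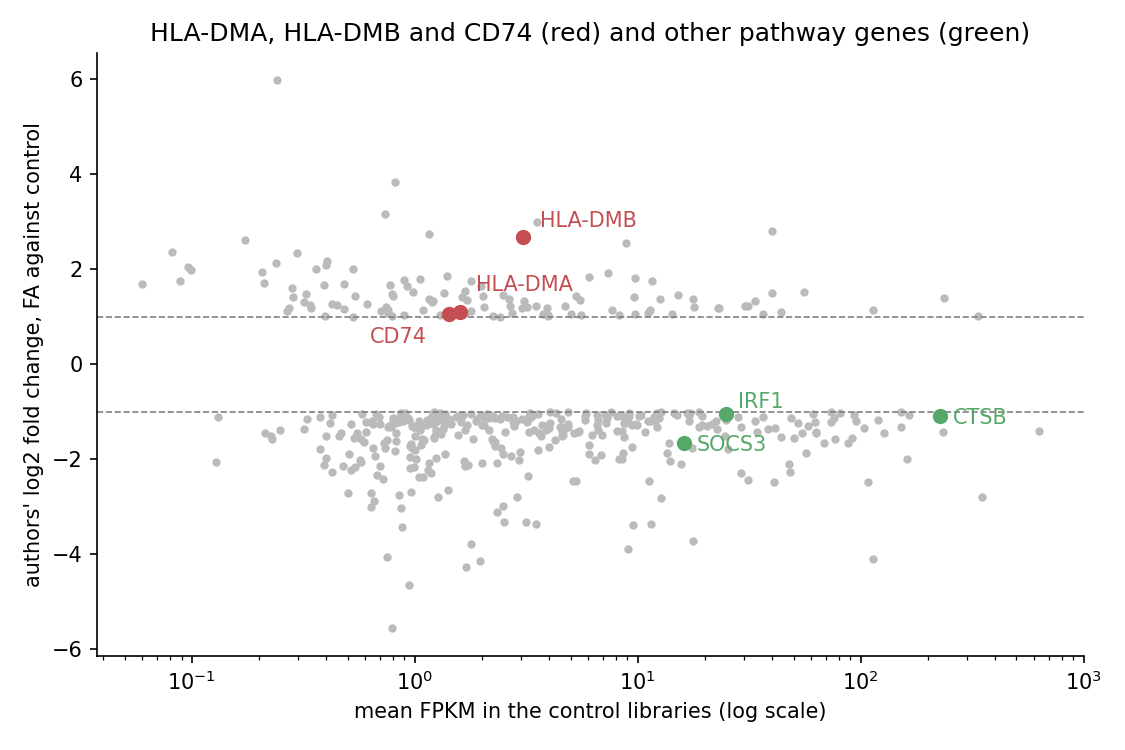
The authors' log2 fold change (y axis) against mean FPKM in the control libraries (x axis, log scale) for all 459 listed genes, with HLA-DMA, HLA-DMB and CD74 in red, CTSB, IRF1 and SOCS3 in green, the others in grey and dashed lines at the limits of 1 and -1. HLA-DMA and CD74 lie at the lower limit of the higher genes with 1.10 and 1.06, HLA-DMB lies well above it with 2.67, and the green genes lie below -1.

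Profiles were compared over the 6 libraries by the distance between log2 levels centred on the control mean, among 371 listed genes with an identifier and a mean of at least 50 counts. This measure contains the difference between the groups, on which the table was selected. Nearest to HLA-DMB were IGFBP1 (distance 0.38), IL1RN (0.48) and ANGPTL2 (0.60), while HLA-DMA was at 2.73, rank 59. Among the genes nearest to HLA-DMA were CD74 (0.56) and the semaphorin gene SEMA4A (0.59), which rose from 1.20 ± 0.29 to 3.08 ± 0.20 FPKM. Nearest to CD74 were the mitochondrial carrier gene SLC25A29 (0.22), LCN2 (0.23) and FICD (0.25), with HLA-DMA at rank 25. By this measure HLA-DMB had its nearest genes elsewhere in the table, and HLA-DMA and CD74 were nearer to each other than either was to HLA-DMB. That order mainly repeats the log2 fold changes of 2.61 for HLA-DMB, 1.04 for HLA-DMA and 1.00 for CD74.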

How the data were processed

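Poly(A)-selected RNA of 6 libraries was sequenced. The authors deposited 1 table of 459 genes with raw read counts and FPKM per library, and for FA against control a false discovery rate (an adjusted p-value) and a log2 fold change, per the file headers. GRCh38 is the build named, per the submitters' processing notes. The sources used here do not give the aligner, counting tool, use of strand or test. Every listed log2 fold change is 1.00 or more in size, and no false discovery rate exceeds 0.00977.

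Depth was recovered from the ratio of counts to FPKM over the 180 genes whose counts reached 200 in each library, with its absolute scale from 16 genes with a single annotated transcript. It was 39900000 to 50900000 fragments per library, and listed genes held 1.34 to 1.68% of it. Counts of all 459 genes were fitted in R 4.3.3 by the quasi-likelihood test of edgeR 4.0.16 (group as the only term, recovered depth as library size, adjusted p under 0.05). The SE is the absolute log2 fold change over the square root of F. The fit was tested on simulated counts. Ratios were compared with exact permutation tests (scipy 1.17.1). Positions are those of GENCODE 29. Every replicate pair differed by more than counting error (chi-square per degree of freedom 7.01 to 77.2). Each library was treated as 1 sample, but this spread does not show that the cultures were independent.

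The genes and lists were chosen with earlier results of these data known. Genes named are the 3 members, list members in the table, listed genes within 1 Mb, and the 3 nearest profiles of each, of which 1 is not reported here. HLA-DRB1, AL645941.2 and BRD2 were named after the annotation was searched. Alternatives were other library sizes, a count filter, DESeq2, limma on log2 FPKM, pseudocounts, a replicate block and leaving out each library.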

Additional observations from a re-analysis of the deposited data

How the results depend on the processing

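HLA-DMA, HLA-DMB and CD74 were higher with an adjusted p under 0.05 under each of 15 alternatives. Nearly all higher genes of the table did the same. In each setting 117 were called higher, except 116 with limma and 109 with the count filter, which kept 418 genes. Passing the alternatives thus adds little to the members' being listed. Leaving out each library in turn gave log2 fold changes of 0.85 to 1.43 for HLA-DMA (largest adjusted p 0.0217, edgeR), 2.48 to 2.81 for HLA-DMB and 0.90 to 1.13 for CD74. The other alternatives gave 0.74 to 2.29, 2.32 to 3.86 and 0.67 to 2.24. The upper ends come from TMM or DESeq2 size factors computed over the listed genes, which by construction centre the typical listed gene and moved the median log2 fold change by 1.24, and the lower ends from limma with 1 FPKM added. With these scalings edgeR called 198 genes (117 higher, 81 or 40.9% lower) and 203 genes (117 higher, 86 or 42.4% lower) in place of 459. Under TMM and DESeq2 size factors, tried for the other named genes after seeing the data, the log2 fold change turned to 0.097 and 0.089 for CTSB, 0.136 and 0.128 for IRF1, and 0.179 and 0.170 for SYNPO, as their decreases were smaller than that shift. Every fit without 1 library called 459 genes.

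The difference of log2 ratios ranged from 1.45 to 1.73 for HLA-DMB over HLA-DMA and from 1.47 to 1.77 for HLA-DMB over CD74 without each library in turn. For CD74 over HLA-DMA it ranged from -0.32 to 0.068, with 0.068 without control 2 and 0.010 without FA 3, so its sign is not settled, and the cause was not tested. Deviations of same-numbered libraries correlated at 0.01, 0.11 and -0.16 across 418 genes, and those of differently numbered libraries at -0.17 to 0.18. No shared deviation by replicate number was seen, but this cannot exclude a paired design. With the replicate block edgeR called 459 genes, with log2 fold changes of 1.08 for HLA-DMA, 2.63 for HLA-DMB and 1.00 for CD74, and paired differences of ratios had p = 0.25 in exact sign-flip tests for both ratios with HLA-DMB, the smallest that 3 pairs allow. In control libraries the FPKM of HLA-DMA varied by 41.5%, where counting error alone would give 10.9%.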
